A study of Mus musculus with 96 samples.

Results

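The genes described here are the chemokines and chemokine receptors on a mouse expression array: every probe whose gene symbol in the platform's probe table begins with Ccl, Cxcl, Ccr or Cxcr followed by a digit. The rule used the symbols alone and took 65 of the 46632 probes, which belong to 49 of the 17711 named genes: 21 Ccl ligands, 13 Cxcl ligands, 9 Ccr receptors and 6 Cxcr receptors. DBA/2J mice, an inbred strain, were given a high-fat diet (HFD) or a standard breeding diet (SBD) for 6 weeks and were dissected at 12 weeks of age after fasting for 2 hours. Total RNA of 8 tissues was hybridised to Illumina Mouse-6 BeadChips, with 6 HFD arrays and 6 SBD arrays for each of perirenal, gonadal, mesenteric, inguinal, subcutaneous and brown fat, liver and muscle, 96 arrays in 16 groups. The labels call the arrays of a group biological replicates, give no sex, and do not tie the arrays of different tissues to the same mouse. The dissection text describes subcutaneous pads that were mainly inguinal, gluteal pads and retroperitoneal pads, and does not say which of them the labels inguinal, subcutaneous and perirenal stand for.

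Chemokines are small secreted proteins that bind receptors on the surface of white blood cells and steer their migration. Inflammatory chemokines such as Ccl2 and Cxcl1 are made on demand by many cell types and draw monocytes and neutrophils, while homeostatic chemokines such as Ccl21a and Cxcl13 are made steadily in lymphoid tissue and place T cells, dendritic cells and B cells there. Fat tissue of obese mice is known for macrophage accumulation, and the Ccl2 and Ccr2 pair is among its best studied parts.

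Levels are given below as log2 intensity after background correction and normalization within a tissue, and a difference is the HFD mean minus the SBD mean on that scale with its standard error (SE), so that 1 unit is a doubling. A gene with several probes is represented by its brightest probe unless stated. A gene was tested in a tissue when its mean level lay above the median of all probes there, and was called at a Benjamini-Hochberg adjusted p under 0.05 in limma's moderated test, two-sided, over every gene and unnamed probe tested in that tissue. Normalization and the background offset of 50 shrink the differences of dim probes. The adipocyte gene Adipoq had mean log2 intensities of 14.8 to 15.5 in the 6 fat tissues, and the brown fat gene Ucp1 averaged 15.1 in brown, 14.4 in subcutaneous and 10.4 to 13.3 in the other fat tissues. Muscle arrays averaged 15.5 for Ckm, and muscle RNA was also found on fat arrays, with muscle marker sums of 15505 to 110499 in HFD and 13368 to 151361 in SBD perirenal fat, 21325 to 115716 in HFD and 82423 to 114298 in SBD brown fat, and up to 59551 in SBD gonadal and 54672 in SBD inguinal fat. The 5 hepatocyte genes on the array summed to intensities of 110403 to 121280 in HFD livers and 110771 to 126495 in SBD livers, and to at most 29625 on an array of another tissue. Mesenteric arrays also carried exocrine pancreas RNA, unevenly, with a mean of 14.4 for Cpb1 and a range of 6.82 to 15.59. The exocrine pancreas marker sums there were 217702 to 311243 on HFD arrays and 1563 to 285708 on SBD arrays.

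A set of arrays stood apart in every fat tissue. As a measure of brightness, the upper quartile of the array's raw intensities was divided by its median. The 4 lowest values in each of the 6 fat tissues belonged to HFD arrays 3 to 6 (1.34 to 1.72), while HFD arrays 1 and 2 had 1.96 to 2.68 and SBD arrays 1.70 to 2.49. In liver and muscle the diets shared 1 range (1.25 to 1.37 in HFD and 1.27 to 1.39 in SBD). Counts without the 4 dim arrays are therefore given beside each tissue's count, where only HFD arrays 1 and 2 remain against 6 SBD arrays.

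Chemokine genes were higher on the high-fat diet in most fat tissues. In perirenal fat 14 of 30 tested members rose, where 13.3% of all genes tested rose, and 2 fell, where 13.3% of all genes fell. In brown fat 12 of 32 rose and 3 fell, against 6.77% and 8.27% of all genes. Ccl2 and Ccl3 are among these 12 and had to differ in brown fat, since their probes passed the filter level on 6 HFD arrays but on 1 and 0 SBD arrays. Without them and Ccl26, which also passed on at most 1 array of a diet, 10 of 29 rose and 3 fell. Gonadal fat had 10 of 31 members higher and 1 lower, against 6.12% and 6.05%. Inguinal fat had 10 of 31 higher and 3 lower, against 11% and 12.7%, and subcutaneous fat 7 of 31 higher and 5 lower, against 8.78% and 11.1% (19.9% in either direction). In mesenteric fat 1 of 35 rose and 0 fell, against 0.253% and 0.396% (0.648% in either direction), with 9 members under an unadjusted p of 0.05 in either direction. None of the 29 members tested in liver or of the 29 tested in muscle passed in limma, where 1.12% and 0.192% of all genes did (0.0935% higher on HFD in muscle). At an unadjusted p under 0.05 there were 5 such members in liver and 2 in muscle, and the authors' deposited values also gave 0 and 0 calls.

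The median difference of the tested members was 0.41 in perirenal fat, 0.39 in brown, 0.29 in gonadal and 0.23 in inguinal fat, while the median over all genes lay between -0.03 and 0.002 in every tissue. It was 0.06 in mesenteric fat, -0.03 in subcutaneous fat, 0.01 in liver and 0.04 in muscle. The HFD and SBD arrays did not overlap for 13 of the 30 perirenal members (12.1% of all genes), 9 of the 32 in brown fat (5.34%, and 7 of 29 without Ccl2, Ccl3 and Ccl26), 7 of the 31 in gonadal fat (6.25%), 4 of the 31 in inguinal fat (9.21%) and 2 of the 31 in subcutaneous fat (7.52%). Cxcl1 alone did not overlap in mesenteric fat (1.95% of all genes), and no member did so in liver (1.32%) or muscle (0.803%). In total 68 pairs of gene and tissue were called, over 25 genes, and 48 of them were called in each of the 12 fits that left out a single array.

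Without the dim arrays 7 members were called in perirenal fat (4.77% of all genes), 5 in brown fat (0.388%) and 2 in inguinal fat (2.39%). The 5 in brown fat include Ccl2 and Ccl3, which had to differ there. None was called in gonadal fat (0.328%, 8 members under an unadjusted p of 0.05), in subcutaneous fat (0.64%, 5 members) or in mesenteric fat (0%, 3 members). The difference kept its sign without the dim arrays in 68 of the 68 called pairs, in a fit with fewer arrays, and 14 of them stayed called. The arrays of that fit are also part of the fit that chose the pairs, so the shared sign is not separate support. Scaling each array to its median instead of quantile normalization shifted the median of all genes to between -0.18 and -0.29 in the fat tissues and left 10 of the 68 calls, 8 of them in perirenal fat and 2 in brown fat. Those 2 were Ccl4 and Ccl2. The part of array brightness in these counts was not tested beyond these fits.

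**Figure D1:**
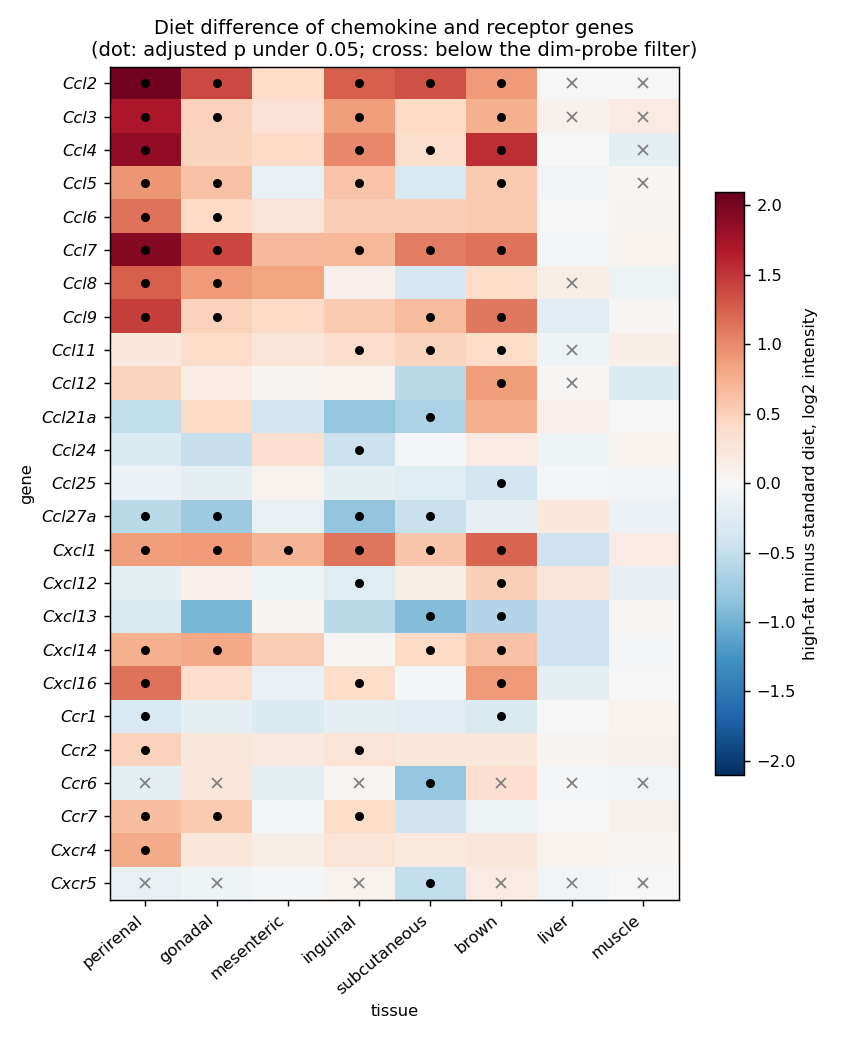
Difference in mean log2 intensity, HFD minus SBD, of the 25 genes called in at least 1 tissue (rows) in the 8 tissues (columns). Red is higher and blue lower on the high-fat diet, a dot marks an adjusted p under 0.05 and a cross a gene below the filter on dim probes. Calls fall in the fat tissues, and perirenal Ccl2 is the darkest cell, at 2.03. Under median scaling Ccl11 in brown and inguinal fat, Ccl6 in gonadal fat and Cxcl16 in inguinal fat change sign.

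Cxcl1, a ligand of Cxcr2 that attracts neutrophils, rose in all 6 fat tissues and was the only member called in mesenteric fat. In brown fat the HFD arrays had 9.11, 9.24 and 9.44 (lowest, median and highest log2 intensity), against 7.92, 8.06 and 8.11 on SBD arrays. The ranges stayed well apart. The brown fat difference was 1.23 ± 0.08 (SE, n = 6 arrays a diet, limma adjusted p = 2.86e-07), a 2.34-fold change that was called also with HFD arrays 1 and 2 alone (1.30, adjusted p = 0.00098). In mesenteric fat HFD arrays had 9.10, 9.22 and 9.55, against 8.32, 8.58 and 8.77 on SBD. These ranges also stayed apart, with a difference of 0.71 ± 0.10 (adjusted p = 0.00641). The mesenteric call was lost with the replicate number as a block (adjusted p = 0.0834), with a separate term for the dim arrays (0.439) and with the bright arrays alone (0.611). The other differences were 1.12 ± 0.18 in inguinal, 0.89 ± 0.14 in gonadal, 0.88 ± 0.17 in perirenal and 0.58 ± 0.19 in subcutaneous fat. The subcutaneous call (adjusted p = 0.0437) was lost in 9 of the 12 fits that left out an array, with adjusted p up to 0.0926. Under median scaling Cxcl1 stayed higher in the 6 fat tissues, by 0.26 to 0.92, with no call.

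The promoter of Cxcl1 is shown because this gene had the smallest p of all members and because its window holds a match to a kappa B-type motif, the sequence that NF-kappa B proteins are known to bind. RefSeq windows (GRCm38.p6, 250 bases before to 50 after the start) were at hand for 35 of the 49 genes. The motif searched was GGGA, then any 2 bases, then TTCC, on both strands, and capitals mark the matches. The window of Cxcl1 is chr5:90890995-90891294, plus strand, with GGGAATTTCC at -71 from the start and, on the other strand, an overlapping GGAATTTCCC at -70.
Cxcl1: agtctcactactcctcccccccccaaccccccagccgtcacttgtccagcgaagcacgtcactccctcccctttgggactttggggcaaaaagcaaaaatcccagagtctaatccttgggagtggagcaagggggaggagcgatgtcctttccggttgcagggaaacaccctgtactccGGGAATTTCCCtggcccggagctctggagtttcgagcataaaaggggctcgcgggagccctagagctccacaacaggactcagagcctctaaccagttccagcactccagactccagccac
The motif was found in 6 of the 35 member windows (Ccl1, Ccr3, Cxcl1, Cxcl10, Cxcl2 and Cxcl3) and in 441 of the 27025 genes with a window (1.632%). Cxcl2 and Cxcl3, neighbours of Cxcl1 on chromosome 5 together with Cxcl5 and Cxcl15, lay below the filter in every tissue, so that Cxcl1 is the single gene of that run with a test. A motif of interferon-responsive genes, TTTC, any 2 bases and TTTC, on both strands, was found in 2 member windows (Cxcl10 and Cxcl14), against 3.993% of all genes.

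Ccl2, Ccl7, Ccl8, Ccl12 and Ccl11 lie next to each other on chromosome 11. Ccl2, Ccl7 and Ccl12 attract monocytes, Ccl2 and Ccl7 through Ccr2, and Ccl11 is an eotaxin, which attracts eosinophils through Ccr3. Ccl2 rose in perirenal, gonadal, inguinal, subcutaneous and brown fat. Its perirenal level was 9.70, 10.50 and 10.73 on HFD arrays and 7.93, 8.15 and 8.88 on SBD arrays. The diets did not overlap, and the difference of 2.03 ± 0.22 (adjusted p = 1.92e-05) was the largest of any member, 4.08-fold. In gonadal fat HFD arrays had 9.77, 10.15 and 10.48 and SBD arrays 8.07, 8.72 and 9.39. In inguinal fat they had 9.19, 9.43 and 9.59 against 7.80, 8.09 and 8.66 on SBD, and in subcutaneous fat 8.82, 8.98 and 9.21 against 7.31, 7.56 and 8.33. Each of these pairs of ranges stayed apart. The differences were 1.38 ± 0.18, 1.26 ± 0.13 and 1.35 ± 0.16, with adjusted p of 0.000377, 2.04e-05 and 5.69e-05. Brown fat had the lowest levels, 7.43, 7.55 and 7.63 on HFD against 6.45, 6.60 and 7.05 on SBD, and a difference of 0.89 ± 0.09. There the probe passed the filter level on 6 HFD arrays and 1 SBD array, so it entered the test through its HFD level and had to differ. Mesenteric Ccl2 differed by 0.39 ± 0.16 and was not called (adjusted p = 0.247).

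Ccl7 followed with 1.93 ± 0.25 in perirenal fat, where HFD arrays had 12.31, 13.29 and 13.40 and SBD arrays 10.60, 10.94 and 11.76. It also rose in gonadal fat (1.40 ± 0.16), brown fat (1.14 ± 0.13), subcutaneous fat (1.08 ± 0.20) and inguinal fat (0.70 ± 0.17). In the last pair of depots 1 SBD array reached into the HFD range, array 2, at 11.87 in subcutaneous and 12.29 in inguinal fat. Mesenteric Ccl7 differed by 0.67 ± 0.18 (adjusted p = 0.11). Ccl8 rose in perirenal fat by 1.26 ± 0.34 and in gonadal fat by 0.89 ± 0.23, with overlapping arrays in both. The gonadal call was lost without HFD array 4 or without HFD array 6, with adjusted p up to 0.0561. In subcutaneous and inguinal fat Ccl8 differed by -0.35 ± 0.33 and 0.11 ± 0.27, neither called. Ccl12 was called in brown fat only, where it rose by 0.88 ± 0.15, with 8.31, 8.41 and 8.61 on HFD against 7.19, 7.44 and 8.29 on SBD. Its second probe gave 0.80 ± 0.13 there, and was called in perirenal fat as well (0.57 ± 0.18, against 0.47 ± 0.22 for the brighter probe). Ccl11 rose by 0.47 ± 0.10 in subcutaneous, 0.39 ± 0.10 in brown and 0.37 ± 0.08 in inguinal fat. Its brown fat call was lost in 4 of the 12 fits, and under median scaling it was 0.17 in subcutaneous fat, -0.039 in brown and -0.027 in inguinal fat, none called.

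**Figure D2:**
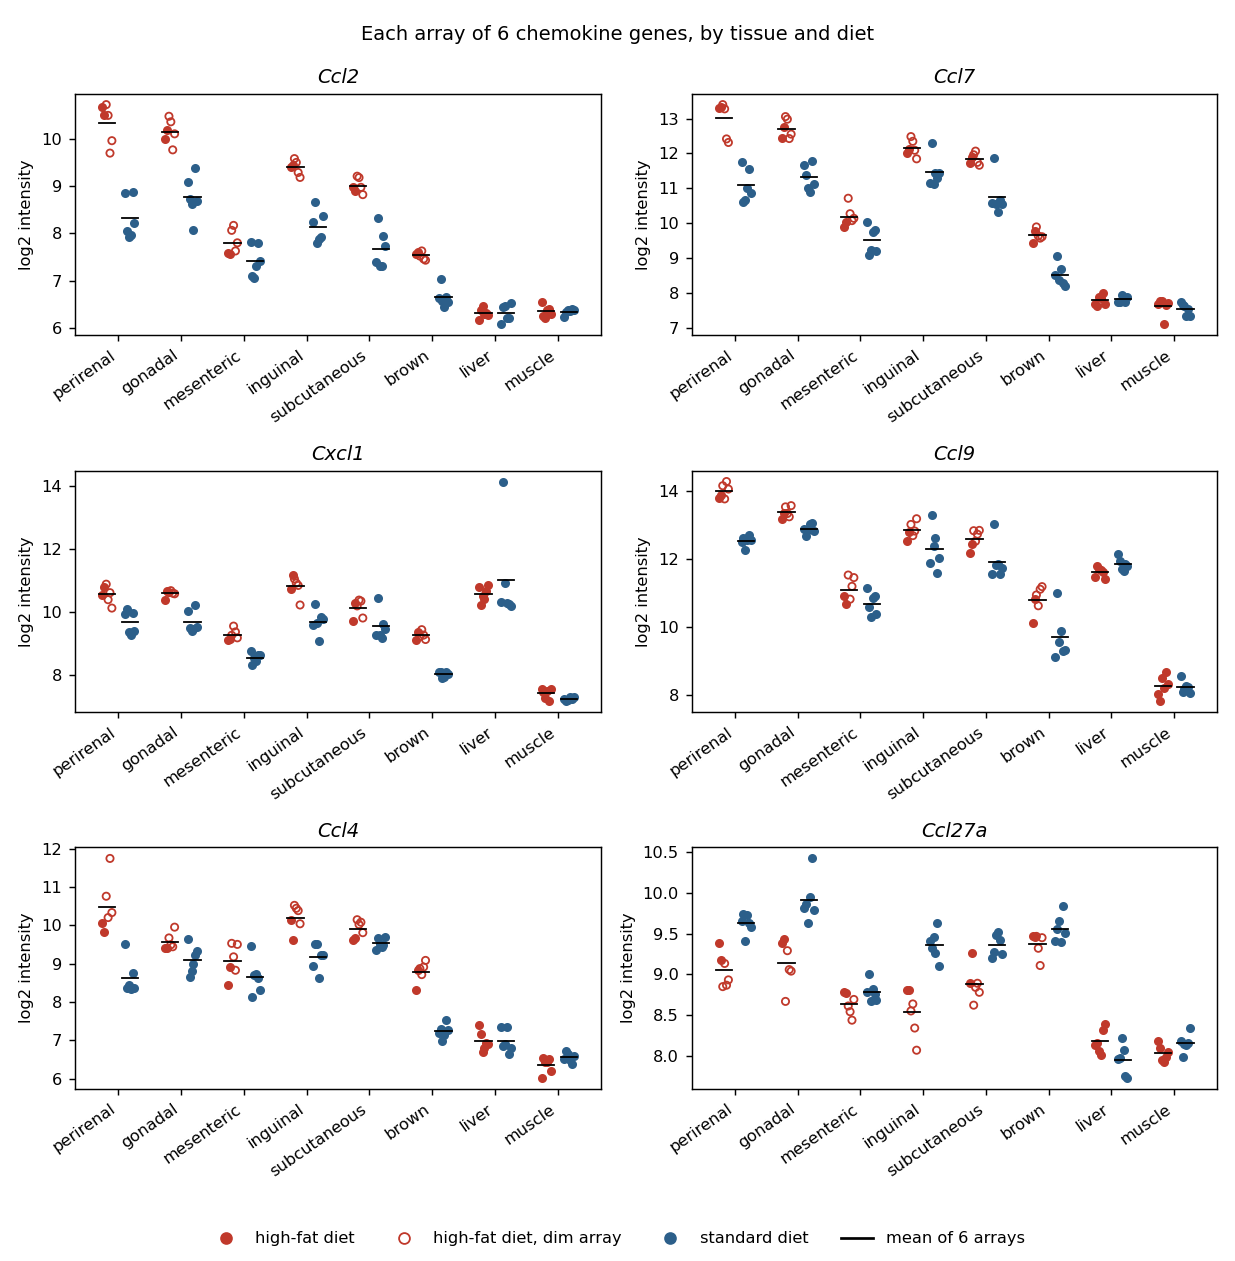
Log2 intensity of Ccl2, Ccl7, Cxcl1, Ccl9, Ccl4 and Ccl27a on each array (points) in the 8 tissues, with HFD left of SBD and a bar at the mean of 6 arrays. Open points are the 4 dim HFD arrays. Perirenal Ccl2 lies between 9.70 and 10.73 on HFD arrays, above the highest SBD array at 8.88, and Ccl27a is lower on HFD in gonadal, inguinal and perirenal fat. Each panel has its own axis, normalized within a tissue.

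The second run on chromosome 11 holds Ccl5, Ccl9, Ccl6, Ccl3 and Ccl4. Ccl3, Ccl4 and Ccl5 attract monocytes and T cells, and Ccl6 and Ccl9 are mouse chemokines that act through Ccr1. All 5 rose in perirenal fat, by 0.93 to 1.86. Of the 5, brown and gonadal fat each had 4 higher, inguinal fat 3 and subcutaneous fat 2. Perirenal Ccl9 had the smallest p of any member in that depot. Its HFD arrays had 13.76, 13.97 and 14.27, against 12.26, 12.56 and 12.71 on SBD arrays. The lowest HFD array lay more than 1 unit above the highest SBD array, and the difference was 1.45 ± 0.10 (adjusted p = 8.9e-07), kept without the dim arrays (1.27, adjusted p = 0.00161). Ccl9 also rose in brown fat (1.11 ± 0.26), gonadal fat (0.48 ± 0.09) and subcutaneous fat (0.67 ± 0.21). The subcutaneous call was lost in 9 of the 12 fits, with adjusted p up to 0.0821.

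Ccl4 had 8.33, 8.85 and 9.09 on HFD arrays of brown fat, against 6.98, 7.24 and 7.53 on SBD arrays. The brown fat groups stayed apart, with a difference of 1.55 ± 0.12 (adjusted p = 1.67e-06). In perirenal fat it had 9.82, 10.27 and 11.75 on HFD against 8.34, 8.41 and 9.52 on SBD. That difference of 1.86 ± 0.29 came with a wide spread in both diets. Inguinal Ccl4 rose by 1.01 ± 0.17 and subcutaneous Ccl4 by 0.36 ± 0.11, a call lost in 5 of the 12 fits. Ccl3 rose by 1.70 ± 0.26 in perirenal, 0.88 ± 0.14 in inguinal, 0.75 ± 0.11 in brown and 0.49 ± 0.12 in gonadal fat. In brown fat its probe passed the filter level on 6 HFD arrays and 0 SBD arrays, so it too had to differ once it was tested. Ccl6 rose by 1.13 ± 0.13 in perirenal fat (11.92, 12.13 and 12.44 on HFD against 10.64, 10.98 and 11.39 on SBD) and by 0.43 ± 0.11 in gonadal fat. The gonadal call of Ccl6 was lost in 4 of the 12 fits and its sign turned under median scaling (-0.022). Ccl5 rose by 0.93 ± 0.19 in perirenal and 0.55 ± 0.11 in brown fat, and by 0.61 ± 0.17 in gonadal and 0.60 ± 0.19 in inguinal fat, calls lost in 7 and 5 of the 12 fits.

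Promoters of 3 of these neighbours are shown because, after Cxcl1, they had the smallest p among called members with a window. All lie on the minus strand of chromosome 11 and hold 0 matches to either motif. Capitals are absent for that reason. Ccl9 is chr11:83578587-83578886, Ccl6 is chr11:83593038-83593337 and Ccl3 is chr11:83649329-83649628 (RefSeq, GRCm38.p6).
Ccl9: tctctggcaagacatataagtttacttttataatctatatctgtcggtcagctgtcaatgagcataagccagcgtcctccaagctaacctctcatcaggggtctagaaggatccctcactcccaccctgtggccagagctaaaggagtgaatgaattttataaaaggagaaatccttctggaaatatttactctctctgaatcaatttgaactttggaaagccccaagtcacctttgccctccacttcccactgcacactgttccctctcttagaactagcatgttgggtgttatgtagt
Ccl6: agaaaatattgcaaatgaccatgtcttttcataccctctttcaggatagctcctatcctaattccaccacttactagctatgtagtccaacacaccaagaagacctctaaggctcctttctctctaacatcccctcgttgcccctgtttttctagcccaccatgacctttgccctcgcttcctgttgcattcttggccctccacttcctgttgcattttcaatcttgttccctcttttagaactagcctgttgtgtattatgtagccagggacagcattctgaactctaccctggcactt
Ccl3: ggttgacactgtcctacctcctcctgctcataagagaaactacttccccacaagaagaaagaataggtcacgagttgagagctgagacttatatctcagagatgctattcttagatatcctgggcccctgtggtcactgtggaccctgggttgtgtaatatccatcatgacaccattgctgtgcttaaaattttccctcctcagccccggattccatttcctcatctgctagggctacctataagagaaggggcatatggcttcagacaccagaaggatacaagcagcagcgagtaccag
The longest stretch that the windows of Ccl9 and Ccl6 have in common is gccctccacttcc, 13 bases, at -14 and -55 from the starts. The other pairs among Cxcl1, Ccl9, Ccl6 and Ccl3 have 7 or 8 bases in common.

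Cxcl16, a membrane-bound chemokine that binds Cxcr6 and is also a scavenger receptor, rose by 1.14 ± 0.16 in perirenal fat, where HFD arrays had 11.66, 11.96 and 12.48 and SBD arrays 10.49, 10.86 and 11.29. It rose by 0.89 ± 0.13 in brown fat and by 0.39 ± 0.12 in inguinal fat. The inguinal call was lost in 7 of the 12 fits and its sign turned under median scaling (-0.057). Cxcl14, whose receptor is debated, rose by 0.80 ± 0.17 in gonadal, 0.75 ± 0.12 in perirenal, 0.62 ± 0.16 in brown and 0.43 ± 0.13 in subcutaneous fat, the last lost in 6 of the 12 fits. Inguinal Cxcl14 did not differ by more than its error (0.02 ± 0.08). The second Cxcl14 probe was called with the same sign in perirenal (1.17 ± 0.15), gonadal and subcutaneous fat.

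Cxcl12, which binds Cxcr4 and holds blood cell precursors in place, gave different answers by probe. The brightest probe rose in brown fat (0.49 ± 0.11) and fell in inguinal fat (by 0.26 ± 0.09, a call lost in 9 of the 12 fits), and was not called in gonadal (0.11 ± 0.11) or perirenal fat (-0.19 ± 0.13). The second probe had 9.96, 10.26 and 10.52 on HFD arrays of gonadal fat, against 8.55, 9.01 and 9.41 on SBD arrays. In perirenal fat it had 9.94, 10.24 and 10.56 against 8.72, 9.12 and 9.77 on SBD. Neither pair of ranges overlapped, with differences of 1.21 ± 0.14 (adjusted p = 0.000128) and 1.12 ± 0.17 (adjusted p = 0.000296) in a fit of all probes. Which transcripts each probe detects is not given in the sources used here. Across the 14 genes with several probes, 8 pairs of gene and tissue had more than 1 probe called, always in the same direction. Ccl25, a ligand of Ccr9, fell by 0.39 ± 0.09 in brown fat on its brightest probe, and its second probe rose by 0.30 ± 0.08 in perirenal fat.

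Ccl27a, which binds Ccr10 and is best known from skin, was lower on the high-fat diet in 4 depots. It had 8.07, 8.60 and 8.81 on HFD arrays of inguinal fat, against 9.10, 9.37 and 9.63 on SBD arrays. In gonadal fat it had 8.67, 9.18 and 9.43 against 9.63, 9.84 and 10.42 on SBD. HFD was lower with no overlap in both depots. It fell by 0.82 ± 0.13 in inguinal (adjusted p = 0.000407), 0.77 ± 0.14 in gonadal, 0.57 ± 0.10 in perirenal and 0.47 ± 0.10 in subcutaneous fat, and each of these calls was kept when any single array was left out. Without the dim arrays the values were -0.58, -0.52, -0.36 and -0.29, none called, with adjusted p of 0.0563, 0.282, 0.125 and 0.361. Median scaling gave -0.76 to -1.18 in these 4 depots and a call in muscle (-0.33). Near-identical copies of Ccl27a and of Ccl21a exist in the mouse genome, so that their signal may include the copies. Ccl24, another eotaxin, fell by 0.45 ± 0.14 in inguinal fat, a call lost in 8 of the 12 fits.

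Many of the receptors lay below the filter. In perirenal fat Ccr2, the receptor of Ccl2 and Ccl7 on monocytes, had 7.60, 7.77 and 7.97 on HFD arrays against 7.26, 7.29 and 7.37 on SBD arrays. The ranges stayed apart and the difference was 0.48 ± 0.07 (adjusted p = 0.000309), kept without the dim arrays (0.41, adjusted p = 0.0312). Ccr2 also rose by 0.28 ± 0.09 in inguinal fat, a call lost in 8 of the 12 fits. Cxcr4, the receptor of Cxcl12, rose by 0.77 ± 0.18 in perirenal fat, with 10.17, 10.41 and 11.20 on HFD against 9.41, 9.74 and 10.12 on SBD. Ccr7, which guides dendritic cells and naive T cells along Ccl21a, rose by 0.63 ± 0.13 in perirenal, 0.56 ± 0.10 in gonadal and 0.39 ± 0.12 in inguinal fat, the last lost in 8 of the 12 fits. Ccr1, which binds Ccl3, Ccl5, Ccl6 and Ccl9, fell by 0.32 ± 0.10 in perirenal and by 0.31 ± 0.09 in brown fat, and both calls were lost in 8 of the 12 fits. Of the 9 Ccr genes 3 were tested in perirenal, gonadal and inguinal fat, and of the 6 Cxcr genes 2. Of the 21 Ccl genes 18 to 20 were tested in the fat tissues.

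Subcutaneous fat had 5 of 31 members lower on the high-fat diet, where 11.1% of all genes fell. The count was 2 without HFD array 6, 9 without SBD array 1 and 2 with array brightness in the model. The 5 were Ccl27a, Ccl21a, Cxcl13, Cxcr5 and Ccr6. Ccl21a, the ligand of Ccr7, had 12.18, 12.41 and 12.68 on HFD arrays against 12.30, 13.16 and 13.59 on SBD arrays, and fell by 0.66 ± 0.17 (adjusted p = 0.0139). The ranges overlapped through a single SBD array at 12.30. Cxcl13, which draws B cells through Cxcr5, had 11.02, 11.49 and 11.89 on HFD against 11.23, 12.44 and 13.22 on SBD. It fell by 0.91 ± 0.25 (adjusted p = 0.0206), a call lost without HFD array 6 (adjusted p = 0.0509). Cxcr5 fell by 0.52 ± 0.17, with 6.58, 7.35 and 7.66 on HFD against 7.38, 7.88 and 7.98 on SBD. Its probe passed the filter level on 4 HFD arrays and 6 SBD arrays, so it entered the test mainly through the SBD level. Ccr6, a receptor of B cells and some T cells that binds Ccl20, fell by 0.81 ± 0.24, with 7.36, 7.77 and 8.49 against 7.85, 8.72 and 9.28 on SBD. The calls of Cxcr5 and Ccr6 were each lost in 6 of the 12 fits. Ccl21b (-0.55 ± 0.19, adjusted p = 0.0512) and Ccr7 (-0.42 ± 0.19) were not called there. The second Ccl21b probe was called (-0.57 ± 0.16, limma adjusted p = 0.0251 in the fit of all probes). Without the dim arrays none of the 4 was called, with values of -0.46 for Ccl21a, -0.63 for Cxcl13, -0.36 for Cxcr5 and -0.27 for Ccr6. Cxcl13 also fell by 0.62 ± 0.20 in brown fat, a call lost in 7 of the 12 fits.

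Lymphocyte markers moved with these genes in subcutaneous fat. Of 8 T cell markers tested there 4 fell and 0 rose, and the intensities of the 8 on the array summed to 15370 to 20005 on HFD arrays, against 20181 to 29458 on SBD arrays, with no overlap, where 11.1% of all genes fell. Of 6 B cell markers tested 3 fell and 0 rose, with sums of 4350 to 6604 on HFD and 4543 to 12605 on SBD, while the B cell genes Pax5 and Cr2 lay below the filter. With array brightness in the model 2 T cell and 2 B cell markers fell. Endothelial markers rose there (4 of 8, where 8.78% of all genes rose), and brown adipocyte marker sums were 51742 to 62306 on HFD arrays and 66160 to 135198 on SBD arrays. In bulk tissue fewer cells of a type and less RNA per cell cannot be told apart. The part of these cells in the lower members was not tested.

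**Figure D3:**
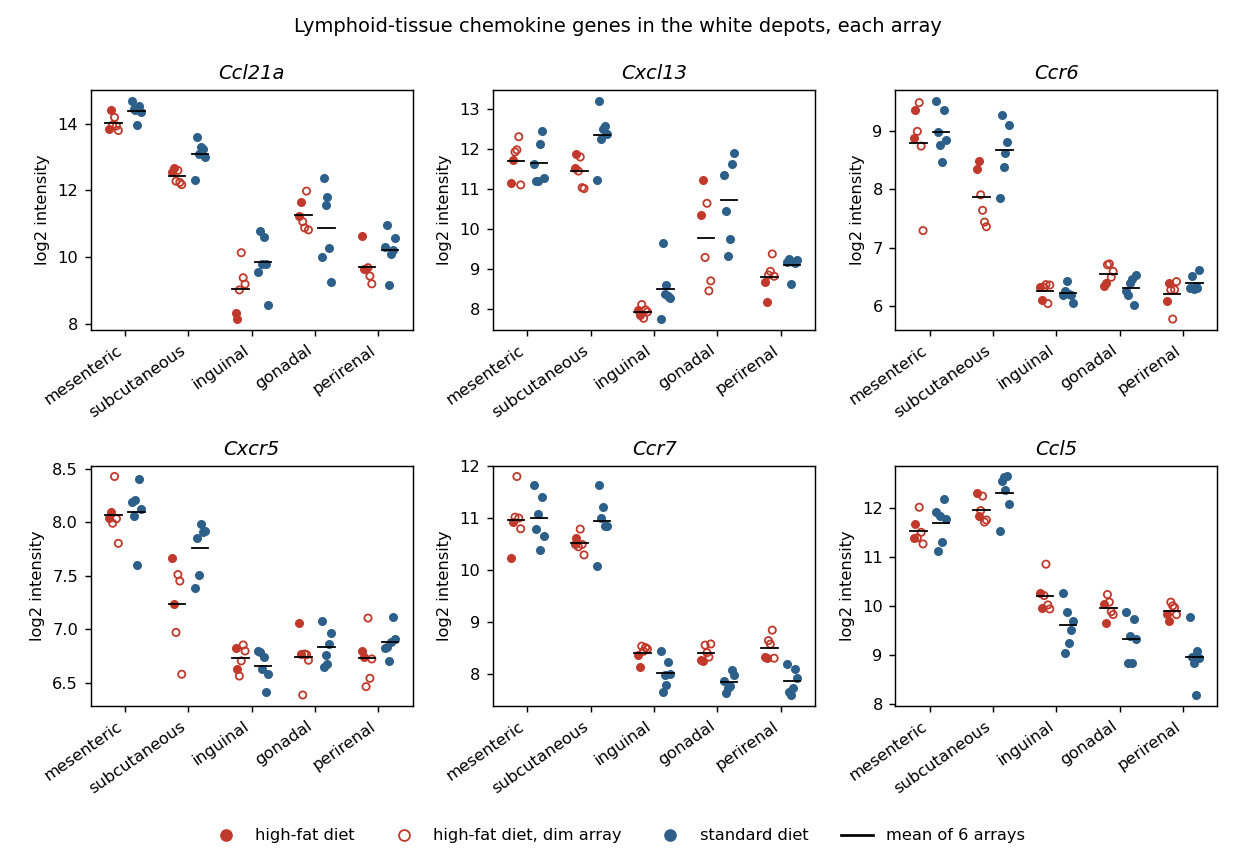
Log2 intensity of Ccl21a, Cxcl13, Ccr6, Cxcr5, Ccr7 and Ccl5 on each array in the 5 white depots, with HFD left of SBD, a bar at the mean of 6 arrays and open points for the 4 dim HFD arrays. The subcutaneous HFD points sit lower for Ccl21a (12.18 to 12.68 against 12.30 to 13.59 on SBD). Each panel has its own axis, normalized within a tissue.

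Members below the filter or without a call were as follows. Of the 49 genes 39 were tested in at least 1 tissue and 21 in all 8, and 10 were tested nowhere: Ccl1, Ccr10, Ccr9, Cxcl10, Cxcl15, Cxcl2, Cxcl3, Cxcl5, Cxcr1 and Cxcr6. The 144 untested pairs of gene and tissue had differences of -0.28 to 0.38. With no filter 4 of them were called, Cxcr6 in brown (0.38) and inguinal fat (0.36), Ccr6 in brown fat (0.36) and Cxcl5 in subcutaneous fat (0.27), all with mean log2 intensities between 5.95 and 6.82. Cxcl9, an interferon-induced ligand of Cxcr3, was tested in all 8 tissues on its brightest probe and called in none (-0.21 to 0.39). Its second probe was called in inguinal fat (0.59 ± 0.16, limma adjusted p = 0.0182 in the fit of all probes). Liver Cxcl13 had the smallest p of that tissue (-0.44 ± 0.13, adjusted p = 0.151), and in muscle that was Cxcl1 (0.18 ± 0.07, adjusted p = 0.478). Liver Cxcl1 had 10.22, 10.59 and 10.86 on HFD arrays against 10.20, 10.30 and 14.13 on SBD arrays. A single SBD array, array 2, stood more than 3 units above the other 5, and the difference was -0.44 ± 0.49 with it and 0.18 ± 0.13 without it.

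The sizes of the diet differences themselves were compared between tissues. Over the 8 tissues 22 of 39 members differed (limma F-test of the tissue by diet term, 24.3% of all genes did), led by Ccl2, Cxcl16, Ccl4, Ccl7 and Ccl27a. Over the 5 white depots 10 of 35 differed (9.64% of all genes): Cxcl16, Ccl2, Ccl4, Ccl3, Ccl5, Ccr7, Ccl7, Ccl27a, Ccl9 and Cxcl14. This fit leaves out that arrays of 1 diet and number correlate across depots (consensus correlation 0.317). With that as a random block 17 members and 4215 genes differed, against 1910 genes without it. Cxcl16 differed by 1.14 in perirenal and -0.15 in mesenteric fat, and Ccl2 by 2.03 and 0.39. The mean diet difference of the intra-abdominal depots (gonadal, mesenteric and perirenal) exceeded that of the inguinal and subcutaneous depots for 2 of 35 members (1.4% of all genes were called in either direction). These were Ccl8, by 1.11 ± 0.30 (adjusted p = 0.0424), and Cxcl14, by 0.46 ± 0.13 (adjusted p = 0.0489). Neither call was found with the authors' deposited values, with median scaling or with no filter. Without the dim arrays 7 members and 1791 genes differed over the 8 tissues, 0 members and 113 genes over the white depots, and 0 members and 0 genes in the intra-abdominal contrast, where 4 white depot members and 3 members of the intra-abdominal contrast had an unadjusted p under 0.05 in limma.

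Levels were compared between tissues on the standard diet after normalizing the 96 arrays together, and tissue levels differed for 35 of 39 members (limma F-test, 90.6% of all genes). Ccl21a averaged 14.51 ± 0.19 (SD, n = 6) in mesenteric and 12.62 ± 0.46 in subcutaneous fat, above 10.22 ± 1.20 in gonadal fat, and each step of that order was free of overlap. The next tissues down to inguinal fat at 9.23 ± 0.73 overlapped with their neighbours. Ccr7 averaged 11.14 ± 0.53 in mesenteric and 10.36 ± 0.52 in subcutaneous fat, which overlapped, and 7.33 to 7.67 in the other 6 tissues. Ccl5, Ccr6 and Cxcr5 had the same pair of depots at the top, as did the inflammatory ligands Ccl4, Ccl17 and Cxcl16, whose pair overlapped with the next tissue, and Cxcl13, at 11.88 ± 0.58 and 11.85 ± 0.69. Of the B cell markers, normalized together and averaged over both diets, Cd79a and Cd79b had the same pair of depots at the top. Cd79a averaged 11.18 in mesenteric and 9.31 in subcutaneous fat, and 6.26 to 7.09 elsewhere. Cd79b averaged 13.53 and 11.62 in that pair, and 7.09 to 8.97 elsewhere. Ms4a1 averaged 8.09 in mesenteric fat, but its 7.44 in subcutaneous fat lay below liver (7.74) and muscle (7.76). Cr2 was similar in all tissues (6.54 to 6.90).

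Other ligands had other orders. Cxcl1 was highest in liver, at 12.05 ± 1.32 with all 6 arrays above every array of the other tissues, and lowest in brown fat, at 8.11 ± 0.09. The liver mean is raised by SBD array 2, which, normalized within liver, stood at 14.13 against 10.20 to 10.93 on the other arrays. Ccl9 was also highest in liver (12.7 ± 0.16), above gonadal fat (12.26 ± 0.15). Cxcl14 was highest in brown fat (11.62 ± 0.20), then muscle (11.15 ± 0.12) and inguinal fat (10.58 ± 0.12), all without overlap. Ccl11 lay between 9.93 and 11.72 outside liver and at 6.43 ± 0.16 in liver. Ccl2 was highest in gonadal fat (8.24 ± 0.37) and overlapped with perirenal (7.93 ± 0.35) and inguinal fat (7.77 ± 0.26), the next in order. Between the intra-abdominal and the 2 subcutaneous depots 9 of 39 members differed (18.8% of all genes), 3 of them higher (8.14%) and 6 lower (10.7%) in the intra-abdominal depots. In log2 intensity, intra-abdominal minus subcutaneous, Ccl8 differed by -2.12 ± 0.21 and Cxcl14 by -1.78 ± 0.13, followed by Ccl12 (-0.99 ± 0.14), Cxcl9 (-0.70 ± 0.14), Ccl5 (-0.68 ± 0.12) and Cxcl12 (-0.27 ± 0.09). Cxcl16 (0.37 ± 0.09), Ccl2 (0.27 ± 0.09) and Ccl27a (0.24 ± 0.06) were higher there.

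**Figure D4:**
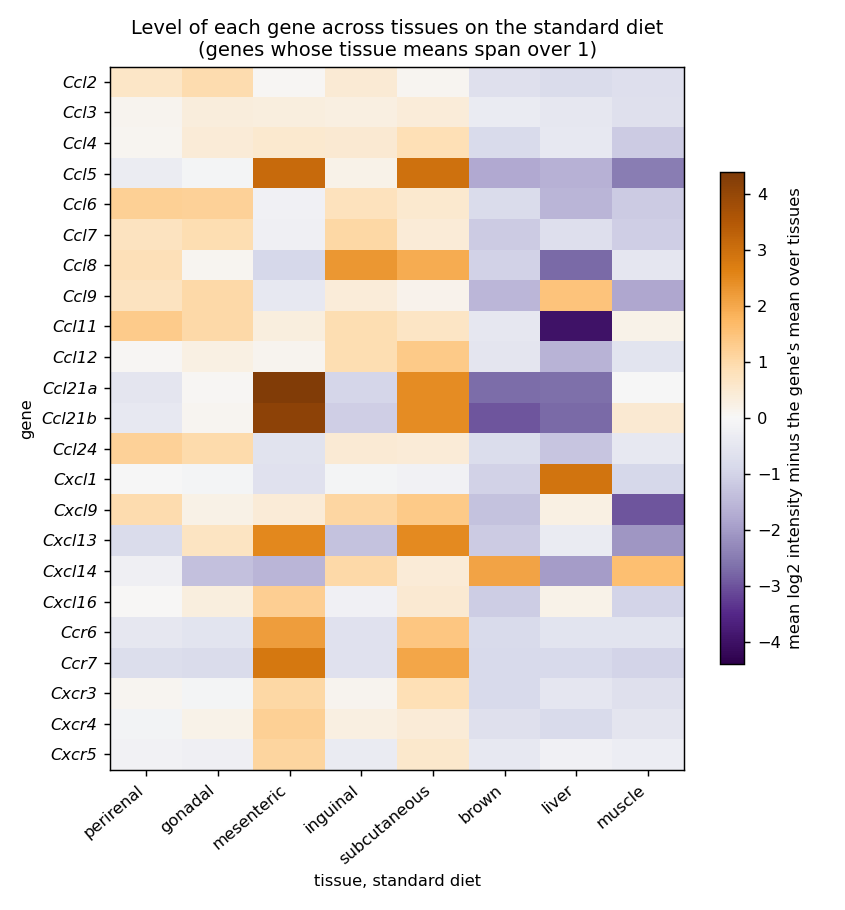
Mean log2 intensity on the standard diet of 23 genes whose tissue means span more than 1 unit, as the difference from the gene's mean over the 8 tissues (6 arrays each, 96 arrays normalized together). Orange is above and purple below that mean. Ccl21a reaches 14.51 in mesenteric fat and Cxcl1 12.05 in liver, a mean raised by a single high array, and Ccl11 is at 6.43 in liver.

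Other genes of the chemokine system were examined in 3 lists. Of the receptor signalling list (27 genes, 24 on the array) 14 of 22 tested rose and 0 fell in perirenal fat, with 16 under an unadjusted p of 0.05 and a median difference of 0.79. Its genes with the smallest p were Dock2, which activates Rac in migrating leukocytes (1.36 ± 0.08), Rgs1, a brake on G protein signalling (3.18 ± 0.24), Vav1 (1.37 ± 0.12) and the actin regulator Coro1a (1.63 ± 0.17). The list had 10 of 21 higher in gonadal fat, 9 of 21 higher and 3 lower in brown fat, 8 of 20 higher in inguinal fat, and 3 higher and 3 lower of 22 in subcutaneous fat. These stand against 6.12% of all genes higher in gonadal, 6.77% in brown, 11% in inguinal, 13.3% in perirenal and 8.78% in subcutaneous fat. Of all genes 6.05% were lower in gonadal, 8.27% in brown, 12.7% in inguinal, 13.3% in perirenal and 11.1% in subcutaneous fat. With array brightness in the model the subcutaneous list had 1 higher and 2 lower. Of the chemokine inducers and their feedback genes 10 of 22 rose in perirenal fat, median 0.29, with Irf5 (1.48 ± 0.14), Irf8 (1.59 ± 0.15), Tnfrsf1b (1.09 ± 0.12) and the lipopolysaccharide co-receptor Cd14 (1.03 ± 0.15) in front. The inducing cytokine genes Tnf, Il6, Ifng, Il10 and Il4 lay below the filter in perirenal fat and were not tested there. All of them but Il4 were also untested in gonadal and brown fat. The inducer list had 6 of 22 higher and 1 lower in gonadal fat, 4 of 23 higher in brown fat, 4 higher and 2 lower of 23 in inguinal fat and 1 higher and 1 lower of 23 in subcutaneous fat. Of the other chemokine system genes 8 of 15 rose and 1 fell in perirenal fat, median 0.74, with Cmtm3 (0.90 ± 0.10), Cx3cr1, the receptor of Cx3cl1 (1.33 ± 0.15), Ccrl2 (0.79 ± 0.11) and Cmtm7 (0.81 ± 0.13) in front. That list had 5 of 15 higher in brown fat, 4 higher and 2 lower of 15 in inguinal fat, 3 of 16 higher in subcutaneous fat and 2 of 15 higher in gonadal fat. In mesenteric fat 0 genes of the 3 lists passed, with 3 in each list under an unadjusted p of 0.05 in limma.

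Markers of several cell types moved in the fat tissues. Of all genes 13.3% rose in perirenal, 6.77% in brown, 6.12% in gonadal, 11% in inguinal, 8.78% in subcutaneous and 0.253% in mesenteric fat. In perirenal fat 13.3% fell, and in gonadal fat 6.05%. Single genes without overlap of the diets made up 12.1% in perirenal, 9.21% in inguinal, 6.25% in gonadal and 7.52% in subcutaneous fat. In perirenal fat 10 of 12 tested macrophage markers rose, and the 13 on the array summed to intensities of 57833 to 86489 on HFD arrays, against 21847 to 35513 on SBD arrays, with Cd163 below the filter. In brown fat 7 of 9 rose (6739 to 11507 on HFD, 4394 to 8766 on SBD), in gonadal fat 6 of 11 (38243 to 51162 and 22697 to 39666), and in inguinal fat 6 of 11 (24424 to 35466 and 15623 to 31221). Subcutaneous fat had 5 of 11 higher (25940 to 34225 on HFD, 17489 to 42611 on SBD), and mesenteric fat 1 of 11 (16188 to 21850 on HFD, 16612 to 31028 on SBD). Neutrophil marker sums did not overlap in perirenal fat (10615 to 15677 on HFD, 1657 to 4903 on SBD), inguinal fat (11951 to 15730 and 3610 to 5352), gonadal fat (5172 to 11759 and 2215 to 3559) or subcutaneous fat (6900 to 8737 and 1763 to 4165). They overlapped in brown fat (1177 to 1773 on HFD, 1012 to 2559 on SBD), where 0 of 5 tested neutrophil markers were called and Cxcl1 had its largest difference, and in mesenteric fat (2327 to 7279 on HFD, 1220 to 3444 on SBD), where 0 of 8 were called. Of the tested neutrophil markers 4 rose and 1 fell of 7 in perirenal fat, 3 rose and 1 fell of 7 in gonadal fat, 3 of 6 rose in inguinal fat and 1 of 7 rose in subcutaneous fat. The median difference of these markers in subcutaneous fat was 0.20. A sum of intensities weighs the brightest genes most, and which genes set the sums apart was not tested. In perirenal fat 4 of 6 T cell markers and 4 of 6 fibroblast markers also rose, while 3 of 5 dendritic cell markers fell and 1 rose, and 3 of 5 mesothelial markers fell. The part of these cells in the ligand differences was not tested.

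The number of members called was also set beside the share of all genes in 4 other fits of each fat tissue. With array brightness in the model 15 members were called in perirenal fat (21.5% of all genes), 12 in brown (8%), 8 in gonadal (8.21%), 8 in inguinal (13.1%), 6 in subcutaneous (14.1%) and 1 in mesenteric fat (0.264%). With a separate term for the dim arrays there were 9 in perirenal (7.21%), 6 in brown (0.985%), 2 in gonadal (0.867%), 2 in inguinal (3.88%), 1 in subcutaneous (2.33%) and 0 in mesenteric fat (0%). Ccl2 was called in perirenal, gonadal, inguinal and subcutaneous fat in that fit, and was the single member called in subcutaneous fat. Ccl2 and Ccl3, which had to differ in brown fat, are in its counts with array brightness and with the dim-array term. With median scaling there were 8 in perirenal (5.39%) and 2 in brown fat (0.554%), Ccl2 among them. Median scaling left 0 in gonadal (0.517%), inguinal (1.79%), subcutaneous (0.495%) and mesenteric fat (0.011%) in limma, where 7, 11, 12 and 2 members had an unadjusted p under 0.05. Ccl2, Ccl3, Ccl4, Ccl6, Ccl7, Ccl9 and Ccr2 in perirenal fat and Ccl4 in brown fat were called under median scaling and also with the bright arrays alone. So was Ccl2 in brown fat, where it had to differ.

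**Figure D5:**
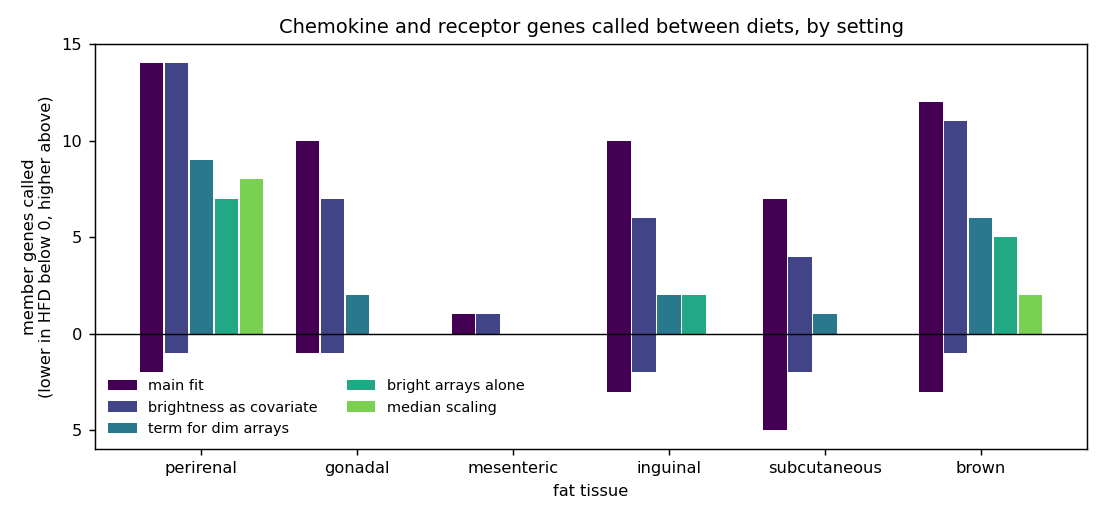
Number of chemokine and receptor genes called in each fat tissue under 5 settings, with genes higher on HFD above 0 and genes lower on HFD below 0. Perirenal fat has 14 higher and 2 lower in the main fit, 7 higher with the bright arrays alone and 8 higher with median scaling. Gonadal and subcutaneous fat have 0 with the bright arrays alone.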

How the data were processed

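The 96 arrays were deposited as raw probe intensities, and the authors' table of processed values held log2 values of the same arrays. Each array's sorted deposited log2 values lay within 0.00191 of the mean sorted log2 intensity of the 96 arrays, so the table is quantile normalized over all arrays with no background correction. The scanner software and its version are not given in the sources used here.

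From the deposited intensities, values were corrected with normexp (offset 50), quantile normalized within each tissue and fitted with limma 3.58.1 in R 4.3.3, HFD against SBD, without a replicate block. Genes were represented by the probe with the highest mean, kept where that mean exceeded the median of all probes, and adjusted by Benjamini-Hochberg over everything tested in the tissue (two-sided, adjusted p under 0.05). Comparisons of levels between tissues normalized the 96 arrays together. Comparisons of diet differences between tissues used the values normalized within each tissue. The fits were tested on simulated data. Of the 46632 probes 29976 have 1 gene symbol, 10 several and 16646 none. Members with a call were named, with list genes limited to the 4 smallest p of a list in a tissue. Members and lists were chosen with earlier results of these data known. Alternatives were the deposited values, no background correction, median scaling, no filter, all probes, a replicate block, brightness in the model, the dim arrays as a separate term, their removal, and each array left out; removing the dim arrays from the between-tissue tests was chosen after seeing the data. The number of arrays limits the precision.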

Additional observations from a re-analysis of the deposited data

Results flagged for a closer look

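In 11 of 136 groups of 6 arrays the highest or lowest array stood apart by Dixon's criterion, which chance meets in about 1 in 20 groups. On SBD array 2, Ccl7 was 12.29 in inguinal fat (the others 11.11 to 11.44) and 11.87 in subcutaneous fat (10.32 to 10.67), Ccl9 was 13.03 (11.54 to 11.84) and Cxcl1 10.45 (9.19 to 9.62) in subcutaneous fat, and Ccl2 was 7.05 in brown fat (6.45 to 6.66). Perirenal Ccl4 was 9.52 on SBD array 1 (8.34 to 8.76). Among HFD arrays, Ccl11 was 9.89 on array 2 of brown fat (10.30 to 10.48), Ccl8 11.10 on array 2 of perirenal fat (11.90 to 12.35), Cxcl1 10.39 on array 1 of gonadal fat (10.58 to 10.68), Cxcl14 10.66 on array 3 of subcutaneous fat (11.01 to 11.18), and Ccl5 10.86 on array 4 of inguinal fat (9.94 to 10.27).

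The diet difference itself differed between the 8 tissues for 22 members, with limma adjusted p of 1.00e-13 for Ccl2, 2.05e-10 for Cxcl16, 4.13e-10 for Ccl4, 5.54e-09 for Ccl7, 2.37e-08 for Ccl27a, 1.08e-06 for Ccl3, 1.10e-05 for Ccl9, 2.10e-05 for Cxcl14, 4.32e-05 for Ccl5, 0.000813 for Ccr7 and 0.00302 for Cxcl1. The others were Ccl12 (0.00481), Ccr6 (0.00789), Cxcl12 (0.00995), Cxcr5 (0.0171), Ccl8 (0.0202), Ccl6 (0.0211), Cxcr3 (0.0336), Ccl24 (0.0356), Cxcr4 (0.0385), Ccl21b (0.0402) and Ccr1 (0.0439). Between the 5 white depots it differed, in limma adjusted p, for Cxcl16 (1.57e-05), Ccl2 (0.00032), Ccl4 (0.000967), Ccl3 (0.00189), Ccl5 (0.00271), Ccr7 (0.00825), Ccl7 (0.00991), Ccl27a (0.0200), Ccl9 (0.0231) and Cxcl14 (0.0276). Between intra-abdominal and subcutaneous depots it differed for Ccl8 (0.0424) and Cxcl14 (0.0489).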

How the results depend on the processing

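Of the 68 calls, 66 held with the authors' deposited values, 66 without background correction, 60 without the filter, 68 with all probes of a gene, 49 with brightness in the model, 20 with the dim arrays as a separate term, 14 with the bright arrays alone and 10 with median scaling. A term for the dim arrays left 6 members in brown, 2 in gonadal, 2 in inguinal, 0 in mesenteric, 9 in perirenal and 1 in subcutaneous fat. The bright arrays alone left 5, 0, 2, 0, 7 and 0 in the same order, and median scaling 2, 0, 0, 0, 8 and 0, with 1 in muscle. These fits rest on fewer arrays or on a term that leaves HFD arrays 1 and 2 to carry the diet difference; for median scaling the cause was not tested. Brightness in the model left 8 in inguinal and 6 in subcutaneous fat. The brown fat counts with the dim-array term and with the bright arrays alone include Ccl2 and Ccl3, which had to differ there. With median scaling that count includes Ccl2. Median scaling turned the sign of Ccl11 in brown (-0.039) and inguinal fat (-0.027), Ccl6 in gonadal fat (-0.022) and Cxcl16 in inguinal fat (-0.057).

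Leaving out each array gave 12 to 18 members in brown, 8 to 14 in gonadal, 7 to 15 in inguinal, 15 to 17 in perirenal, 7 to 15 in subcutaneous and 1 in mesenteric fat, 0 to 1 in liver and 0 in muscle. The calls over all genes moved too, between 1539 and 4127 in brown, 1330 and 3004 in gonadal, 3075 and 5380 in inguinal, 3586 and 5397 in perirenal and 2301 and 4437 in subcutaneous fat. The 7 of inguinal fat came without HFD array 3 or SBD array 4, and the 7 of subcutaneous fat without any of HFD arrays 3 to 6 or SBD array 4. The 1 in liver, without SBD array 6, was Cxcl13.

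Whether replicate numbers pair the samples was not settled. Same-numbered arrays correlated between -0.40 and 0.60 in mesenteric fat, 0.01 and 0.30 in liver, and 0.04 and 0.33 in muscle. The HFD array correlated best with the SBD array of its own number for 4 of 6 in liver and 1 of 6 in mesenteric fat. With the replicate block 64 of the 68 calls held, with 16 members called in brown, 12 in gonadal, 12 in inguinal, 0 in mesenteric, 15 in perirenal and 14 in subcutaneous fat, 1 in liver (Cxcl9, 0.35) and 0 in muscle. Diet and number as a random block across tissues gave 27 members for the 8 tissues, 17 for the white depots and 2 for the intra-abdominal contrast, while the calls over all genes were 7956, 4215 and 1010, against 5406, 1910 and 277 without it.

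Between tissues, median scaling gave 6 members for the 8 tissues, 2 for the white depots and 0 for the intra-abdominal contrast, and the bright arrays alone 7, 0 and 0. The intra-abdominal contrast had 0 calls with the deposited values, 1 without background correction and 0 without the filter.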
